A study of Mus musculus with 44 samples.

Results

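Interactions of the α-globin promoters were compared between 3C libraries made directly from 100,000 primary murine erythroid cells and 200 ng aliquots of 3C library made from bulk erythroid cells. Both kinds of material were processed with the low-input (LI) Capture-C protocol. The members were defined by their labels, as 3 libraries from 100,000 cells (named A, D and E in the deposited table) and 3 from 200 ng of bulk library (replicates 1, 2 and 3), 6 of the 44 samples of the series. The question was whether chromosome conformation capture performed on a small cell sample gave the same profile as a small amount taken from a large preparation. All 6 libraries came from Ter-119+ cells of the spleens of female C57BL/6 mice that had received phenylhydrazine, selected with magnetic beads, fixed with 2% formaldehyde and digested with DpnII. The age of the mice was not given in the sources used here, and no expression values were among the files, so the erythroid label could not be checked against marker genes. The methods call the 200 ng samples aliquots in the text and biological replicates in a table note, so the spread between them may be technical, and p-values then measure only that spread. For 100,000 cells, the 3C procedure itself was scaled down, with digestion and ligation in the same tube and no centrifugation after lysis. The groups were deposited in separate tables. By the paper's estimate, 200 ng of 3C library corresponds to fewer than 100,000 cells, so the amount of input differed as well. Amount of input, cell sample, 3C procedure and table therefore cannot be told apart. The libraries from 50,000 cells and from 100 ng, 3 each and taken from the same pair of tables, were used to see whether a difference also lay between the tables at a lower input.

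In a 3C library, chromatin is cross-linked, cut with a restriction enzyme and religated, so that fragments close in space become joined. Capture-C enriches the junctions of chosen viewpoints with oligonucleotides, and distinct sonicated junctions are counted as unique interactions of a viewpoint. The mouse α-globin genes Hba-a1 and Hba-a2 encode the α chain of haemoglobin and are highly active in erythroid cells, where their promoters contact a cluster of enhancers that lie upstream, in and near the introns of Nprl3. Nprl3 encodes a regulator of the mTORC1 pathway and is expressed widely.

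The promoters are a duplicated pair, and their interactions had been pooled by the authors because reads cannot be assigned to either copy. The RefSeq sequences of the GRCm38.p6 assembly show how close the copies are, since the 250 bases before the start of Hba-a1 and of Hba-a2, both on the plus strand of chromosome 11, share an identical run of 247 bases. The bases before Hba-a1 are shown with the CCAAT and TATAA boxes in capitals.
Hba-a1: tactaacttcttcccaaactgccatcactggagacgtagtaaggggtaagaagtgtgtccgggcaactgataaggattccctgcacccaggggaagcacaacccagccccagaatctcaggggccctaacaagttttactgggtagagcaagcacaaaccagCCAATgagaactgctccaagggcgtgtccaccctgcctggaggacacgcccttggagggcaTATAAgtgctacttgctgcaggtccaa
CCAAT, the box that NF-Y binds, and TATAA, the core of the TATA box, were searched on both strands and stood in both promoters. They were found in 33.8% and 22.8% of the 32851 promoters of the same table. GATC, the palindromic site that DpnII cuts, stood in 0 of the 2 promoters and in 41.9% of all promoters. In the deposited tables, whose build is mm9 in the submitters' processing notes, the captured fragments and their flanks appear as stretches with no counts, chr11:32181399-32185213 and chr11:32194504-32198003. Their centres lie 12.9 kb apart, and distances are given from the nearest of these centres. The lower-coordinate side is called the enhancer side, and the GRCm38.p6 gene order there runs outward from Hba-x, an embryonic globin gene, over Nprl3, Mpg, Rhbdf1, Snrnp25 and Il9r.

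More unique interactions were counted from 100,000 cells than from 200 ng. The inputs were not equal, since by the paper's estimate 200 ng corresponds to fewer than 100,000 cells. The part of input in the totals was not tested. The 100,000-cell libraries held 42989 (A), 52093 (D) and 47030 (E) unique interactions, and the 200 ng libraries held 24942, 25919 and 33512. These totals pool both promoters, which the paper lists separately at 200 ng with counts of similar size. Since reads cannot be assigned to either copy, a junction may be counted for each promoter. The totals may therefore exceed the number of distinct junctions, and by how much was not tested. The lowest 100,000-cell library was above the highest 200 ng library, and the group means of 47371 ± 4562 and 28124 ± 4691 (SD, n = 3 each) differed 1.68 times. On the log2 scale the difference was 0.76 ± 0.16 (SE). With 3 libraries against 3, the exact two-sided permutation test cannot give a p below 0.1, which was the value here, and adjusted with the Benjamini-Hochberg procedure over the 26 single-value comparisons it was 0.236. The same p and adjusted p apply to each of these 26 comparisons between 100,000 cells and 200 ng in which the groups did not overlap.

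The distinct DpnII fragments behind these interactions differed less. Libraries A, D and E touched 8996, 10178 and 9581 fragments, and the 200 ng libraries touched 7868, 7951 and 9832, so that the groups overlapped. The ratio of the means was 1.12. When each library was scaled down to the 24942 interactions of the smallest, the expected number of fragments was 7737, 8228 and 8063 for 100,000 cells and 7868, 7861 and 8865 for 200 ng, a ratio of 0.977. At the same depth the groups overlapped. At the lower input, totals of 9800 to 21250 from 50,000 cells enclosed those of 13210 to 13828 from 100 ng. Inputs were unequal there too, since the paper's estimate puts 100 ng at fewer than 50,000 cells. The plot of library values shows totals apart, fragments overlapping and the 2 shares described next.

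**Figure D1:**
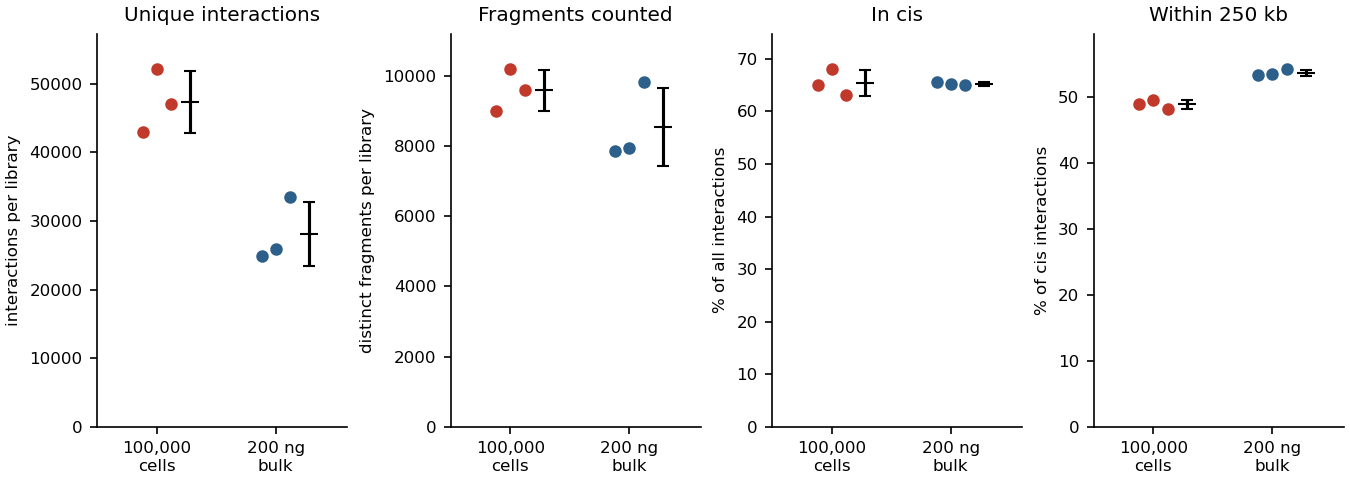
Unique interactions per library, distinct fragments per library, interactions in cis as % of all interactions and interactions within 250 kb as % of cis, with 1 point per library and the mean ± SD beside them (n = 3). Totals of 100,000-cell libraries lie above those of 200 ng libraries, the shares in cis overlap, and the shares within 250 kb are 48.2% to 49.6% against 53.3% to 54.2%.

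The mean share of interactions in cis, on chromosome 11, was close in the groups, but the libraries from cells were more spread. It was 65.0%, 68.0% and 63.1% in libraries A, D and E, with 95% Wilson intervals of 64.6% to 65.5%, 67.6% to 68.4% and 62.7% to 63.6%. It was 65.6%, 65.2% and 65.0% in the 200 ng libraries, with intervals of 65.0% to 66.2%, 64.6% to 65.8% and 64.5% to 65.5%. The means were 65.4% ± 2.44 and 65.3% ± 0.323 (SD, n = 3), a difference of 0.13 ± 1.42 (SE) percentage points (exact permutation p = 0.9). The intervals of the 100,000-cell libraries did not touch each other, whereas those of the 200 ng libraries overlapped. These intervals cover counting error only and take interactions as independent. Those on the same fragment, or from a junction counted for both promoters, may not be. Rows on other chromosomes ended at 121.8 Mb in both tables, so interactions beyond it are not among the trans counts and the shares in cis are relative to the rows given. Without library D the difference was -1.17 points, and without replicate 3 of 200 ng it was -0.011 points. At the lower input the shares were 63.9% ± 2.49 from 50,000 cells and 65.8% ± 0.111 from 100 ng, again with the wider spread in the small cell samples (exact permutation p = 0.4).

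Of the cis interactions, fewer were local in the 100,000-cell libraries. The share within 250 kb of the promoters was 48.9%, 49.6% and 48.2% in A, D and E and 53.3%, 53.4% and 54.2% in the 200 ng libraries. The groups did not overlap, and the means of 48.9% ± 0.709 and 53.6% ± 0.464 differed by -4.73 ± 0.489 (SE) points (exact permutation p = 0.1). Within 100 kb and within 500 kb the differences were -5.18 and -5.21 points. Counted as distinct fragments in place of interactions, the difference was -0.776 points (exact permutation p = 0.2). At the lower input the local share was 46.8% ± 2.24 from 50,000 cells and 56.2% ± 1.37 from 100 ng, again with no overlap.

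Divided into 19 bins by distance and side, cis shares did not overlap between the groups in 8 bins (42.1%), 2 higher (10.5%) and 6 lower (31.6%) in 100,000-cell libraries. On the enhancer side every bin up to 100 kb was lower. From 25 to 50 kb, the bin with the largest share near the promoters, the libraries from 100,000 cells held 10.7%, 11.0% and 10.8% of cis interactions and those from 200 ng 13.0%, 12.7% and 12.6%. From 10 to 25 kb the means were 7.94% ± 0.152 and 8.81% ± 0.0249, within 10 kb 5.89% ± 0.240 and 6.81% ± 0.310, and from 50 to 100 kb 5.29% ± 0.278 and 6.14% ± 0.120. On the opposite side, the bins within 10 kb, from 10 to 25 kb and from 25 to 50 kb overlapped between the groups. The opposite bin from 50 to 100 kb was higher, at 0.802% ± 0.0871 against 0.526% ± 0.0784. The remaining bins without overlap were 250 kb to 1 Mb on the enhancer side, 4.41% against 4.80%, and 5 to 20 Mb on the opposite side, 6.51% against 7.15%.

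In percentage points, the largest difference among the bins lay far out on the opposite side. Over 20 Mb from the promoters, libraries A, D and E held 23.0%, 20.7% and 24.4% of cis interactions and the 200 ng libraries 16.5%, 16.8% and 16.2%. The difference was 6.22 ± 1.09 (SE) points with no overlap, and leaving out each library in turn gave 5.37 to 7.22 points. Over 20 Mb away on the enhancer side, the shares were 4.34% ± 0.120 and 4.44% ± 0.302, a difference of -0.10 ± 0.19 (SE) points (exact permutation p = 0.8). The promoters lie between 30 and 40 Mb on a chromosome whose rows end at 121.8 Mb. On the enhancer side this bin therefore covers far less sequence and ends at shorter distances, so the sides are not matched for distance. The libraries of lower input held 21.4% ± 0.858 from 50,000 cells and 16.1% ± 0.456 from 100 ng over 20 Mb away on the opposite side, without overlap, and on the enhancer side they held 4.45% ± 0.547 and 4.02% ± 0.242, with overlap. From 5 to 20 Mb on the enhancer side, the lower-input shares of 6.59% ± 0.368 and 5.09% ± 0.164 did not overlap, whereas those of 100,000 cells and 200 ng did. In all, 10 of 19 bins (52.6%) did not overlap at the lower input, 4 higher and 6 lower. Of these and the 8 bins at the higher input, 5 were shared and had the same direction, the 4 enhancer-side bins up to 100 kb and the far opposite bin. These lower-input libraries share no sample with the others but lie in the same tables.

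**Figure D2:**
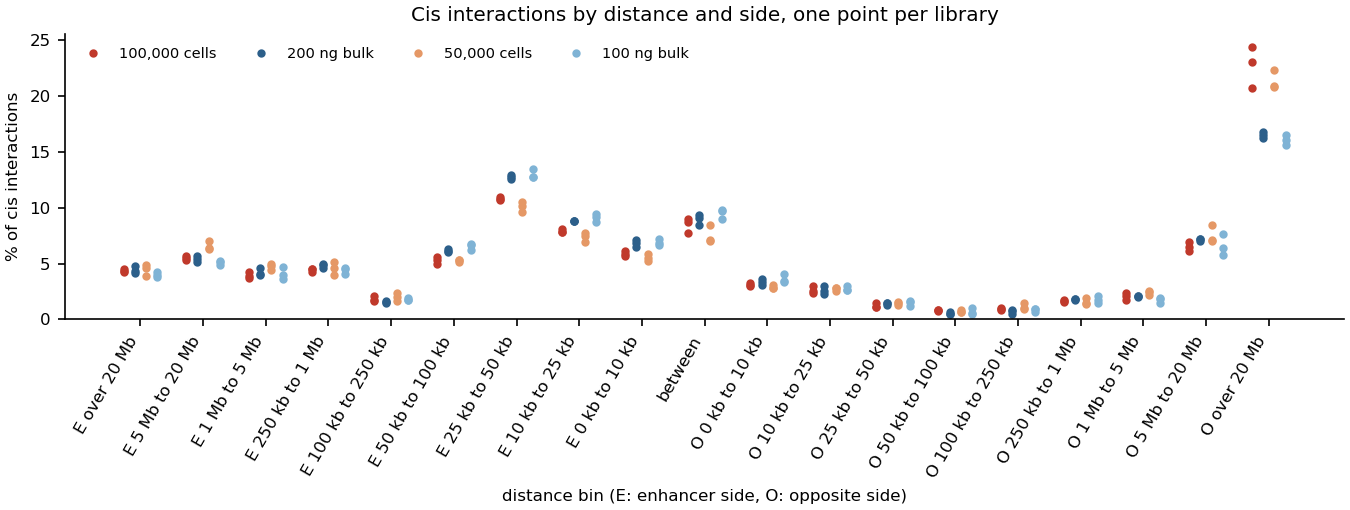
Share of cis interactions (%) in each bin of distance on the enhancer side (E) and the opposite side (O), and between the promoters, with 1 point per library of 100,000 cells, 200 ng, 50,000 cells and 100 ng. Over 20 Mb on the opposite side both cell-sample groups lie at 20.7% to 24.4%, above the bulk aliquots at 15.6% to 16.8%, and from 25 to 50 kb on the enhancer side they lie below them.

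The higher far share was spread over the distal part of chromosome 11. In 10 Mb regions of the chromosome, laid out after the distance bins had been seen, shares did not overlap in 9 of 13 regions (69.2%). All 7 regions from 60 Mb to the end were higher from 100,000 cells, by ratios of 1.35 to 1.83. The region from 60 to 70 Mb held 4.98% ± 0.0905 and 3.66% ± 0.157 of cis interactions, and the region from 100 to 110 Mb held 1.83% ± 0.303 and 1.00% ± 0.102. In the 3 regions from 0 to 30 Mb, on the other side of the locus, the differences were between -0.02 and 0.01 points. These regions lie closer to the promoters than most of the sequence past 60 Mb, so the sides are not matched for distance. Nearer on the opposite side, the region from 50 to 60 Mb overlapped, at 7.84% ± 0.130 and 7.47% ± 0.471. The region from 40 to 50 Mb was lower from 100,000 cells, at 3.93% ± 0.235 and 4.30% ± 0.0595. All of chromosome 11 past 60 Mb held 17.0%, 15.0% and 18.4% of cis interactions in A, D and E and 10.9%, 11.3% and 11.4% in the 200 ng libraries. As a share of distinct cis fragments, the values were 29.5% ± 2.16 and 22.2% ± 0.824, again with no overlap, so the share was higher in fragments as well as in interactions. Among the other chromosomes, 4 of 19 (21.1%) had shares of trans interactions that did not overlap, over the rows up to 121.8 Mb. Chromosome 1 held 3.91% ± 0.0677 of trans interactions from 100,000 cells and 5.20% ± 0.180 from 200 ng, and chromosome 4 held 4.69% ± 0.0255 and 5.56% ± 0.303. Chromosome 5 held 6.08% ± 0.221 and 5.23% ± 0.424, and chromosome 17 held 7.88% ± 0.269 and 7.04% ± 0.318.

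Between 20 kb and 10 Mb, the decay of interactions with distance did not differ beyond the spread between libraries. The slope of log10 interactions per kb on log10 distance was -1.22, -1.19 and -1.24 in A, D and E and -1.21, -1.21 and -1.22 in the 200 ng libraries. The means of -1.217 ± 0.0242 and -1.215 ± 0.00298 (SD, n = 3) differed by -0.0023 ± 0.0141 (SE; exact permutation p = 0.8). From 50 kb to 5 Mb the difference was -0.0267 (exact permutation p = 0.1), in the direction of a steeper decay in 100,000-cell libraries. At the lower input, again between 20 kb and 10 Mb, the slopes were -1.17 ± 0.0304 from 50,000 cells and -1.26 ± 0.0259 from 100 ng. They did not overlap, and the decay was less steep from 50,000 cells. The curves were not smooth. On the enhancer side, the density at 221 kb was 3.49, 5.33 and 3.93 interactions per kb per 100,000 cis interactions in A, D and E and 4.88, 1.61 and 2.42 in the 200 ng libraries. At 388 kb it was 17.0, 15.4 and 13.8 against 15.5, 16.2 and 13.7, so that a bump near 388 kb stood in all 6 libraries. At single distances the groups could lie apart, as at 166 kb on the enhancer side, where the density was 8.27, 10.1 and 8.28 in A, D and E and 4.79, 5.52 and 5.55 in the 200 ng libraries. This distance, and the one near 94.6 kb on the opposite side, were picked from all distances plotted. How many of those distances lay apart was not counted, so these points are examples only.

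**Figure D3:**
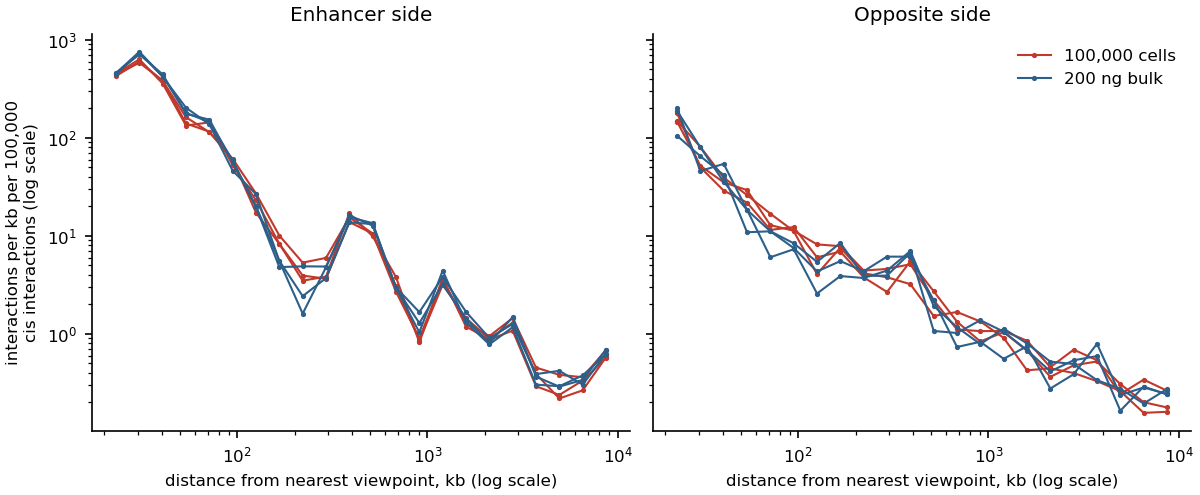
Interactions per kb per 100,000 cis interactions (log scale) against distance from the nearest viewpoint in kb (log scale), on the enhancer side and the opposite side, with 1 line per library. The bump near 388 kb on the enhancer side is present in all 6 lines, and near 94.6 kb on the opposite side the lines of 100,000 cells, at 11.2 to 12.3, lie above those of 200 ng, at 7.30 to 8.40.

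Close to the promoters, the same windows held the most interactions in both groups. In 5 kb windows scaled to 100,000 interactions per library, the 5 windows with the highest mean share within 250 kb, outside the 10 kb next to the promoters, all lay on the enhancer side, from 10.8 to 35.8 kb away. The highest, chr11:32165001-32170000, held 2242, 2480 and 2424 interactions per 100,000 in A, D and E and 3035, 2863 and 2808 in the 200 ng libraries. The next, chr11:32150001-32155000, held 1970, 2179 and 2094 against 2586, 2523 and 2384. Both windows were lower in every 100,000-cell library, by ratios of the means of 0.821 and 0.833. The window chr11:32170001-32175000 overlapped between groups, at 1722 to 2018 and 1941 to 2145. The windows chr11:32145001-32150000 and chr11:32155001-32160000 held 1485 ± 59.1 and 1486 ± 110 interactions per 100,000 from 100,000 cells and 1884 ± 69.2 and 1703 ± 110 from 200 ng. Of the 8 windows from 10 to 50 kb on the enhancer side, 4 were lower and 0 higher in 100,000-cell libraries without overlap, beside 22 of 114 windows (19.3%) without overlap in either direction among those tested on the chromosome. Together these 8 windows held 12.8% of all interactions from 100,000 cells and 14.8% from 200 ng, and the means of the groups over the 8 windows had r = 0.980. No mm9 annotation was used, so these windows are not assigned to single genes or enhancers.

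Set against the opposite side, the enhancer side was favoured in every library. Interactions 12 to 40 kb away numbered 3901, 4998 and 4339 on the enhancer side and 879, 1023 and 912 on the opposite side in A, D and E. In the 200 ng libraries they numbered 2727, 2832 and 3541 against 493, 419 and 728. The log2 ratio of the sides was 2.15, 2.29 and 2.25 from 100,000 cells and 2.47, 2.76 and 2.28 from 200 ng. The means differed by -0.27 ± 0.14 (SE), with an overlap between library D and replicate 3 (exact permutation p = 0.2). Without replicate 2 of 200 ng the difference was -0.15. With distinct fragments in place of interactions the difference was -0.06. At the lower input the mean ratios were 2.09 ± 0.15 and 2.40 ± 0.19 and did not overlap. Of the local interactions alone, the enhancer window took 29.1% ± 1.06 from 100,000 cells and 30.9% ± 0.750 from 200 ng (exact permutation p = 0.2).

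**Figure D4:**
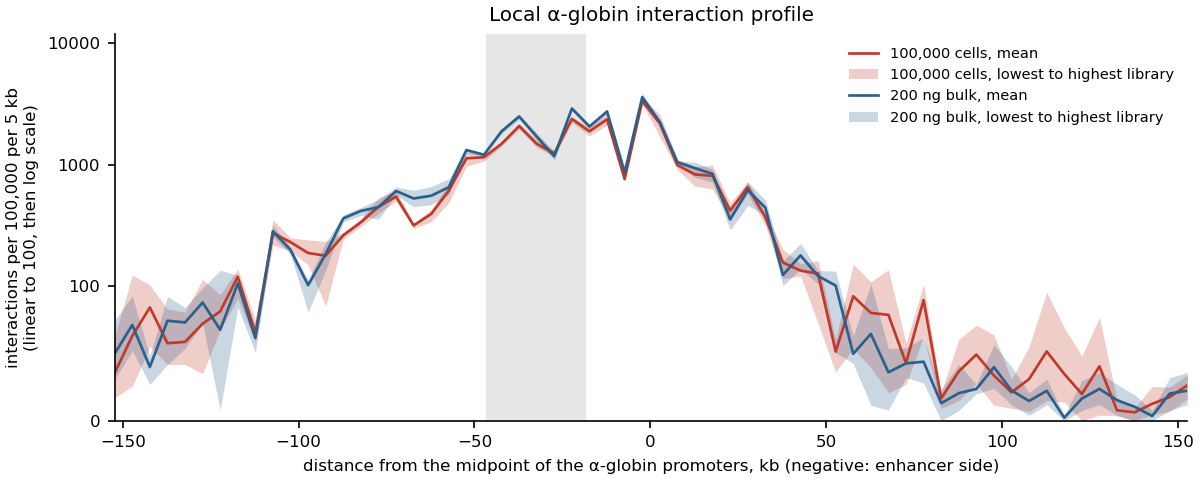
Interactions per 100,000 in 5 kb windows (linear up to 100, then log scale) against distance in kb from the midpoint of the α-globin promoters, negative on the enhancer side. Lines are means and bands the lowest to highest of 3 libraries. The grey band marks 12 to 40 kb from the nearest promoter on the enhancer side, where the line of 200 ng lies mostly above that of 100,000 cells. Both groups are highest between the promoters.

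Tested across chromosome 11, no fragment or window differed after adjustment. The quasi-likelihood test of edgeR, scaled with TMM factors so that each fragment was compared relative to the other tested fragments, called 0 of 246 fragments (0%) higher and 0 lower at an adjusted p under 0.05, and 19 (7.72%) had an unadjusted p under 0.05, 7 higher and 12 lower. DESeq2 also called 0, with 24 at an unadjusted p under 0.05. All 246 fragments, those with a mean count of at least 10, lay within 101 kb of the promoters, so distant fragments were too thinly counted to be tested. Of 114 windows of 5 kb, edgeR called 0 (0%) and DESeq2 0, with 11 (9.65%) and 15 at an unadjusted p under 0.05. Scaled to all interactions of a library, edgeR called 2 fragments and 1 window, all lower in 100,000-cell libraries, and the median log2 difference of the tested fragments was -0.15 in place of -0.004.

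The 3 fragments with the smallest p in each direction, and below the 3 windows, are given as values. They were chosen by p, so a lack of overlap between the groups in them follows largely from that choice. The fragment chr11:32146567-32146860, 36.6 kb away on the enhancer side, had 67, 70 and 78 interactions in A, D and E and 63, 73 and 122 in the 200 ng libraries, from smaller totals. Its log2 difference was -0.84 ± 0.23 (SE), with an edgeR adjusted p of 0.0979, and -0.99 with an adjusted p of 0.00737 when scaled to all interactions. The fragment chr11:32164968-32165528, 18.1 kb away at the edge of the window of highest share, had 31, 64 and 30 interactions against 46, 46 and 67, a log2 difference of -0.98 ± 0.31 with an edgeR adjusted p of 0.148 (0.0459 when scaled to all interactions). The short fragment chr11:32173393-32173449, of 57 bp, had 26, 14 and 7 against 23, 30 and 39. In these 3 fragments, every 100,000-cell library had a lower share than every 200 ng library.

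In the other direction, the fragment chr11:32187970-32188250, between the promoters, had 133, 143 and 96 interactions from 100,000 cells and 45, 48 and 51 from 200 ng, a log2 difference of 0.75 ± 0.23 with an edgeR adjusted p of 0.148. The fragment chr11:32224325-32227296, 29.6 kb away on the opposite side, had 33, 27 and 45 against 3, 7 and 13. The fragment chr11:32093858-32094689, 89.0 kb away on the enhancer side, had 29, 14 and 23 against 6, 1 and 2, the largest log2 difference of the 6 at 2.24 ± 0.79. Without replicate 1 of 200 ng, which held 6 of these bulk interactions, it was 3.36. The edgeR adjusted p of both was 0.205, and the shares of neither overlapped between the groups.

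Among windows, chr11:32120001-32125000, 60.8 kb away on the enhancer side, had the smallest p. It held 298, 330 and 319 interactions per 100,000 in A, D and E and 449, 617 and 513 in the 200 ng libraries, a log2 difference of -0.60 ± 0.17 with an edgeR adjusted p of 0.118 (0.0144 when scaled to all interactions). Its neighbour chr11:32125001-32130000 was also lower in every 100,000-cell library, at 393 ± 46.5 against 554 ± 96.9. The third lower window, chr11:30905001-30910000, overlapped between groups. Higher in every 100,000-cell library were chr11:31820001-31825000, 361 kb away, at 66.2 ± 15.5 against 18.7 ± 2.47, chr11:32090001-32095000 at 187 ± 47.3 against 102 ± 18.2 and chr11:32045001-32050000 at 84.1 ± 25.2 against 40.0 ± 11.3. The edgeR adjusted p of these windows, all but the first, was between 0.287 and 0.449. The window with the highest share over 1 Mb away, chr11:30895001-30900000, held 45.6 ± 20.5 and 39.7 ± 6.74 interactions per 100,000 and overlapped between groups.

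The r-values between libraries of different groups lay between those within each group. Over 19777 chromosome 11 fragments with a count in any of the 6 libraries, Pearson's r averaged 0.890 over the 9 pairs between groups (0.877 to 0.905), 0.879 within 100,000 cells and 0.916 within 200 ng. The group means had r = 0.956. In 5 kb windows the averages were 0.986, 0.984 and 0.990. These r-values describe fragments that share libraries, and they rest on the steep local part of the profile. In windows over 250 kb from the promoters they were 0.283 between groups, 0.218 within 100,000 cells and 0.402 within 200 ng. Fragments within 250 kb were largely the same, 593 of them counted in both groups, 75.7% of the 783 from 100,000 cells and 84.4% of the 703 from 200 ng. Over 5 Mb away, 775 fragments were counted in both, 8.65% and 11.2% of each group's fragments.

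Within groups, r over fragments was 0.871 to 0.885 from 100,000 cells and 0.910 to 0.922 from 200 ng, so no pair stood apart as a library deposited again.

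The clearest difference between the groups lay in how distant interactions were spread over fragments. For each interaction on another chromosome, the number of interactions on the same fragment in the same library was averaged over interactions, which gives 1 when each has a fragment of its own. With both promoters pooled, a junction counted for each of them puts more than 1 interaction on its fragment. A value above 1 can thus arise without distinct junctions that share a fragment. How many junctions were counted so was not tested. Rows on other chromosomes up to 121.8 Mb served as these fragments. It was 4.97, 5.14 and 5.17 in A, D and E and 2.74, 2.86 and 3.00 in the 200 ng libraries, a difference of 2.22 ± 0.0977 (SE) with no overlap (exact permutation p = 0.1). On chromosome 11 over 5 Mb away it was 5.27 ± 0.0277 against 2.95 ± 0.0556. At the lower input, with mean totals of 14214 and 13561 interactions, it was 4.14 ± 0.390 from 50,000 cells and 2.85 ± 0.0163 from 100 ng, without overlap. The totals there ran from 9800 to 21250 and from 13210 to 13828, and the part of depth was not tested. Divided by the number of interactions sharing a fragment, the totals had a log2 difference of -0.07 (exact permutation p = 0.7). That number is computed from counts of the same library and can rise with its total. The divided totals are therefore not an independent comparison, and why the totals differed was not tested.

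The distribution behind these means had a different shape in each group. Of chromosome 11 fragments counted over 5 Mb away, 12.5% ± 0.575 held 1 interaction from 100,000 cells and 27.5% ± 1.00 from 200 ng. Exactly 2 interactions were held by 22.4% ± 2.33 and 42.9% ± 0.625, 3 by 14.1% ± 0.716 and 7.92% ± 0.661, 4 by 19.7% ± 1.24 and 17.6% ± 1.33, and 5 by 12.5% ± 0.434 and 2.78% ± 0.106. There, fragments with 2 interactions outnumbered those with 1 in both groups, and fragments with 4 outnumbered those with 3. On other chromosomes the 100,000-cell libraries had more fragments with 1 interaction, 27.4% ± 0.969, than with 2, 20.4% ± 1.54, whereas the 200 ng libraries had 33.0% ± 1.89 and 40.9% ± 1.53. Slc25a37, a viewpoint with a lone promoter, had 66.6% ± 2.75 of its trans fragments at 1 interaction, 27.0% at 2 and 5.13% ± 0.428 at 3 in the 200 ng libraries, beside 6.89% ± 0.535 at 3 for the pooled α-globin promoters. For β-globin, whose adult genes Hbb-b1 and Hbb-b2 were also pooled, the shares were 44.7% ± 1.96 at 1, 36.1% ± 1.04 at 2, 5.54% ± 0.685 at 3 and 11.2% ± 1.27 at 4 in the same libraries. In the 2 libraries of the series made by the standard protocol from cells fixed with 2% formaldehyde, where the α-globin promoters are pooled as well, 65.7% ± 3.70 of trans fragments were at 1 and 30.3% ± 2.94 at 2. Their rows on other chromosomes reached 197.2 Mb. They had 31384 and 17397 trans fragments at 1 interaction, against 1354 to 1620 in the 200 ng libraries. Slc25a37 had fewer interactions than α-globin at 200 ng. These shares thus come from unlike depths, and the part of depth was not tested. No cause of this pattern was tested. The median length of far fragments was 450 to 457 bp from 100,000 cells and 445 to 454 bp from 200 ng. Fragments under 200 bp held 3.77, 3.80 and 3.89 interactions on average in A, D and E and those over 800 bp held 3.77, 3.99 and 3.77. In the 200 ng libraries the averages were 2.21, 2.38 and 2.31 under 200 bp and 2.21, 2.30 and 2.35 over 800 bp.

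**Figure D5:**
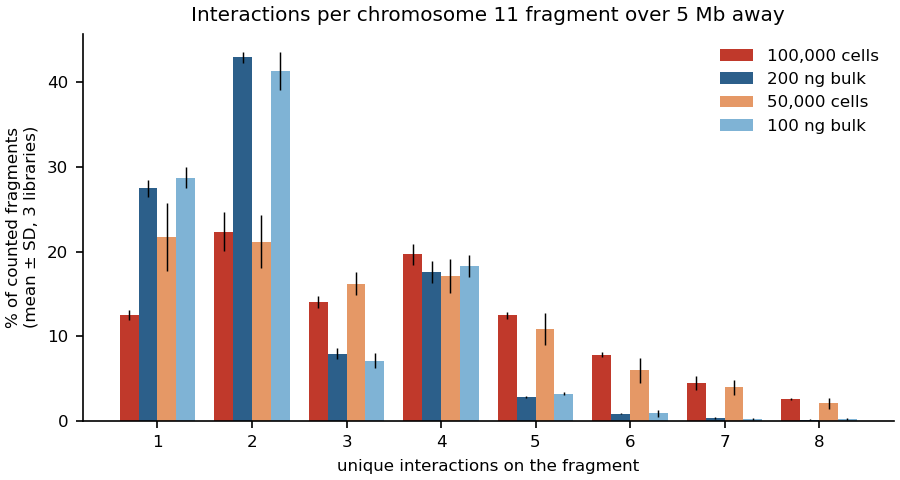
Share of counted chromosome 11 fragments over 5 Mb from the promoters (%, mean ± SD of 3 libraries) against the number of unique interactions on the fragment, from 1 to 8, for 100,000 cells, 200 ng, 50,000 cells and 100 ng. Bulk aliquots peak at 2 with a lesser peak at 4, and few of their fragments hold more than 5, whereas the cell samples are spread from 1 to 8.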

How the data were processed

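The authors mapped the reads, removed duplicates with identical or nearly identical ends and counted unique interactions per DpnII fragment. The deposited values are raw counts, with both α-globin promoters pooled, so that a junction may be counted for each promoter. Whether both tables had the same filter settings is not given in the sources used here. The submitters' processing notes name Trim Galore, Bowtie and the build mm9. Chromosome 11 rows of the tables matched by name in 8707 of 64653 cases, and rows listed in a single table were taken as 0 in the other. Rows on other chromosomes stop at 121.8 Mb, the end of chromosome 11, in both tables. They were used as separate fragments of their chromosome, and their positions were not used as coordinates.

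Fragments and windows with a mean count of at least 10 over the 6 libraries were tested with edgeR 4.0.16 (R 4.3.3; TMM, quasi-likelihood, adjusted p under 0.05), with DESeq2 1.42.0 as the alternative. The edgeR test was also run on simulated counts that took their means, library sizes and dispersion from these data. The outcome of that run is not given here. Single values came from SciPy 1.17.1, pandas 2.3.3 and NumPy 2.4.6 under Python 3.11.15, with exact permutation tests. Binomial intervals are 95% Wilson intervals and cover counting error only. Named were the 3 fragments and 3 windows with the smallest p in each direction, the 5 windows of highest share within 250 kb and the highest over 1 Mb away. The members, defined by labels, and the lists were chosen with earlier results of these data known. Totals of 24942 to 52093 interactions limit tests to fragments near the promoters.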

Additional observations from a re-analysis of the deposited data

How the results depend on the processing

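No paired analysis was possible because the columns of the 100,000-cell libraries carry letters and those of the 200 ng libraries carry numbers. The local share, the enhancer-side values and the number of interactions sharing a fragment kept their direction under every alternative run. Divided by the number of interactions sharing a fragment, the log2 difference of totals was -0.068, and with fragments at equal depth, an alternative chosen after seeing the data, -0.032. With 4 distance bins per factor of 10 the slope difference was 0.00171. Left out in turn, libraries gave -1.17 to 1.25 points for the cis share and -0.0146 to 0.0096 for the slope. The r-value between groups was 0.986 in 5 kb windows, 0.928 within 250 kb, 0.125 on the log2 scale, 0.812 without the 10 kb next to the promoters and 0.283 in windows over 250 kb away, the last chosen after seeing the data. Scaled to all interactions, 2 fragments and 1 window were called, and 1 window was called with windows shifted along the chromosome. Of the bins that overlapped between groups, leaving out libraries turned the sign of opposite 10 to 25 kb (-0.126 to 0.250 points), opposite 1 to 5 Mb (-0.162 to 0.134), enhancer side 5 to 20 Mb (-0.0264 to 0.242) and enhancer side over 20 Mb (-0.223 to 0.0702). The window chr11:32170001-32175000, at 0.00096 on the log2 scale, was at -0.13 scaled to all interactions, -0.012 in DESeq2, -0.081 and -0.016 with mean counts of at least 5 and 20 and -0.036 to 0.050 with libraries left out, and chr11:30895001-30900000 was at -0.047 to 0.62. The causes were not tested. With 3 libraries a group, fragments beyond 101 kb are too thinly counted for a test of each.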
